A study of Mus musculus with 4 samples.

Results

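Csnka2ip, Pitpnc1, Pgpep1l, Ankrd50, Tceal3, Tnfrsf19, Dnajc6, Lsm14b and Uvrag are 9 mouse genes outside the Tox locus with at least 1 region whose peak was listed for T cells lacking TOX and not for T cells with it. They were chosen from these same libraries for such KO-only regions, meaning regions called in each KO list but in no WT list. Presence or absence in KO and WT cells is therefore described for them and not tested. Peaks of the 4 libraries that shared at least 1 bp were merged into regions, and a region belonged to the nearest protein-coding gene within 100 kb of its midpoint. The 9 genes held 96 of 97394 regions and were 9 of 16537 genes with a region.

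Chromatin was profiled by ATAC-seq, in which a transposase cuts and tags open DNA. The KO group was TOX-deficient SMARTA CD4 T cells, gated on Ly5.1+ Ly5.2- and on low levels of PD1, LAG3 and CD39. The WT group was TOX-sufficient SMARTA CD4 T cells, gated on Ly5.1+ Ly5.2+ and on high levels of PD1, LAG3 and CD39. All cells carried the transgenic SMARTA receptor, had been given as naive cells to hosts bearing B16-GP61 melanoma and treated with cytoxan, and came from the tumor-draining lymph node 11 days after transfer. Each genotype had 2 libraries, KO-1 and KO-2 for the knockout and WT-1 and WT-2 for the wild type. Genotype, sort gate and congenic marker changed together and cannot be told apart. The sources used here do not give how TOX was removed or whether the replicates came from separate animals. An exact two-sided permutation test of 2 against 2 libraries cannot give a p below 0.333.

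The KO lists held 43078 (KO-1) and 61773 (KO-2) peaks, the WT lists 56852 (WT-1) and 61489 (WT-2), and read depth is unknown. All 8 T cell markers, among them Cd3e and Cd4, had a peak in every library, with 51 and 72 regions in the KO libraries and 50 and 49 in the WT libraries. Regions at 9 B cell markers numbered 9 and 16 in the KO libraries, where Ms4a1 had no peak, and 82 and 93 in the WT libraries, where all 9 markers had one. Those at 8 myeloid and dendritic cell markers numbered 15 and 26 in the KO libraries, without a peak at Csf1r, Adgre1, Lyz2 or Cd68, and 40 and 47 in the WT libraries, without a peak at Lyz2. Those at 6 melanocyte markers, which B16 cells could bring, numbered 8 and 16 in the KO libraries and 8 and 8 in the WT libraries, with Dct at 0 in all. Among them Tyr had 2 and 3 regions in the KO libraries and 0 and 1 in the WT libraries. Tyrp1 had 1 and 3 against 0 and 0, and Mitf 2 and 5 against 4 and 3. Mlana had 1 and 3 against 2 and 2, and Pmel 2 in every library. The CD8 genes Cd8a and Cd8b1 together had 1 and 5 regions in the KO libraries and 2 and 1 in the WT libraries. In bulk libraries a change in the share of cells and a change in accessibility per cell cannot be told apart, and the part of other cell types in the results below was not tested.

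The genes do not form a single pathway. Lsm14b encodes an RNA-binding protein of messenger ribonucleoprotein granules, known from mouse oocytes. Membrane traffic is represented by Uvrag, a partner of Beclin 1 in autophagy and endosome transport, by Ankrd50, an ankyrin repeat protein of endosomal recycling, and by Dnajc6 (auxilin), a cochaperone that uncoats clathrin vesicles in neurons. Pitpnc1 encodes a phosphatidylinositol transfer protein, and Tnfrsf19 (TROY) a TNF receptor family member known from hair follicles and the nervous system. Pgpep1l is named for its likeness to pyroglutamyl-peptidase I. Csnka2ip encodes a partner of the alpha prime subunit of casein kinase 2 known from testis, and Tceal3 belongs to the X-linked TCEAL family. Accessible DNA in T cells lies at promoters and at distal enhancers, and an open distal region need not act on the nearest gene.

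Of the 26 KO-only regions, 2 covered an annotated start site, at Lsm14b and Dnajc6. Their promoters are shown with that of Uvrag, open in every library, and that of Csnka2ip, without a peak in any. Each line gives the 250 bases before a start, 5′ to 3′ on the gene's strand, from RefSeq on GRCm38.p6. The positions are chr2:180024737-180024986 on the plus strand for Lsm14b, chr4:101507726-101507975 on the plus strand for Dnajc6, chr7:99141145-99141394 on the minus strand for Uvrag and chr16:64602332-64602581 on the minus strand for Csnka2ip. Capitals mark matches to the KLF/SP motif GGGCGG or the NF-Y motif CCAAT on either strand.
Lsm14b: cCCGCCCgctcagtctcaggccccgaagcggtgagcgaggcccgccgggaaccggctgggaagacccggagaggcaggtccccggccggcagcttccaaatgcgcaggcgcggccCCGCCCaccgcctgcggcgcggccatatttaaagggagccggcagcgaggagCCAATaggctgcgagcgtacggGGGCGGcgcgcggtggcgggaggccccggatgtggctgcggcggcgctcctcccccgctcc
Dnajc6: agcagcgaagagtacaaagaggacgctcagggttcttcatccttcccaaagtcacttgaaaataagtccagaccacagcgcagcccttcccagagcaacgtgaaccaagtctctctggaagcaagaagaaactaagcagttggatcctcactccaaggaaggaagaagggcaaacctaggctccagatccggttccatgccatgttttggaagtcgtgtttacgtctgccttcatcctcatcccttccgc
Uvrag: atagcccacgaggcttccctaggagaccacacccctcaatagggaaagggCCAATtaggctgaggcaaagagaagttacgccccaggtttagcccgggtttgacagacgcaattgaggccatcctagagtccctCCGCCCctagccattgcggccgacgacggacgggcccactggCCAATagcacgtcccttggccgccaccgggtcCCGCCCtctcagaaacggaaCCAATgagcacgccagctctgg
Csnka2ip: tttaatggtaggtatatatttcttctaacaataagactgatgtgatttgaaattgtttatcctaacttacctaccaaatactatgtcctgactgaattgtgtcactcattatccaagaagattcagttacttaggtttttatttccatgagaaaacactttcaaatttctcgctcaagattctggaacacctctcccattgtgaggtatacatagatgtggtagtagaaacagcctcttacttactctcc
The Lsm14b promoter had a GC content of 76.0%, with 3 KLF/SP matches and 1 NF-Y match, and that of Uvrag 61.6%, with 2 and 3 matches. Dnajc6 (50.8%) and Csnka2ip (34.4%) held neither motif. The median GC content of the 32851 promoters in the table was 52.4%, and 32.7% of them hold the KLF/SP motif and 33.8% the NF-Y motif. Another 9 motifs were searched on both strands and matched in none of these 4 promoters. They were the RUNX motif TGTGGTT (in 4.40% of promoters), the TCF/LEF motif CTTTGAA (in 4.46% of promoters) and the GATA motif AGATAAG (in 2.74% of promoters). Further ones were the ETS motif AGGAAGT (in 7.69% of promoters), the T-box motif GGTGTGA (in 3.33% of promoters) and the AP-1 motif TGANTCA (in 6.75% of promoters). The last were the NRF1 motif GCGCATG (in 3.24% of promoters), the E-box CACGTG (in 6.02% of promoters) and the CRE motif TGACGTC (in 2.78% of promoters).

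The RefSeq table held 14 promoter windows for the 9 genes, each reaching 50 bases past the start. A peak of every library touched 6 of them, at Pitpnc1, Ankrd50 (2), Tnfrsf19 (2) and Uvrag. The KO peaks alone touched 2, those of Lsm14b and of the first Dnajc6 start, and at Pgpep1l the window was touched by the WT-2 peak alone. At 5 windows no library had a peak, namely Csnka2ip, the 3 of Tceal3 and the second of Dnajc6. GC content ran from 34.4% at Csnka2ip to 76.0% at Lsm14b, and 97.0% of the windows in the table were at or below that of Lsm14b.

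Across the 9 genes, 55 and 75 regions had a peak in KO-1 and KO-2, against 37 and 46 in WT-1 and WT-2. These are 65 ± 14.1 in KO and 41.5 ± 6.36 in WT libraries (SD, n = 2 each), a difference of 23.5 regions. Over all regions of the genome, the KO lists covered 40.9% and 60.0% and the WT lists 54.4% and 60.2%. By class, 26 of the 96 regions (27.1%) were KO-only, against 1.78% of all regions, a share that the choice of the genes fixes. WT-only regions numbered 6 (6.25%), against 8.80% of all regions, and stood only at Uvrag. Another 21 (21.9%) had a peak in all 4 libraries, against 27.6% of all regions. Both KO libraries had more regions than both WT libraries at 8 of the 9 genes, against 4.28% of all genes with a region, a count that the choice of the genes favours. The reverse held at Uvrag, and at 17.7% of all genes. The remaining 43 regions had other combinations. The most frequent was a peak in KO-2 alone (16 regions, 16.7%), against 18.8% of all regions. Without KO-1, when a peak in KO-2 suffices, 42 of 92 regions were KO-only, against 22.3% of all regions. With peaks of a deposited −log10 q of at least 5 there were 7 of 63, against 2.19% of all regions. These 7 were at Csnka2ip, Tceal3, Lsm14b and Uvrag. Leaving out KO-1 gave 7 KO-only regions at Csnka2ip, 8 at Pitpnc1, 5 at Ankrd50 and 5 at Tceal3.

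**Figure D1:**
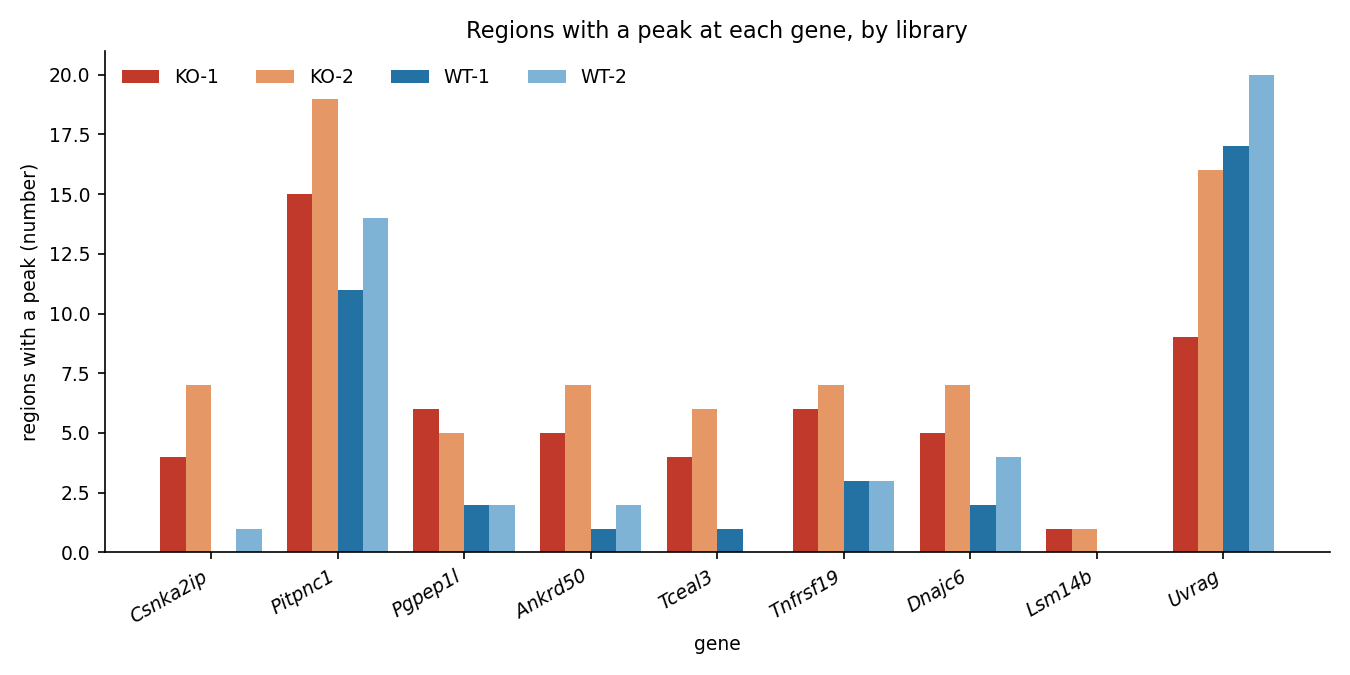
Number of regions with a peak (y axis) at each of the 9 genes (x axis) in each KO and each WT library, as bars from 0. Both KO bars stand above both WT bars at 8 genes, and at Uvrag both WT bars, at 17 and 20, stand above the KO bars, at 9 and 16.

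**Figure D2:**
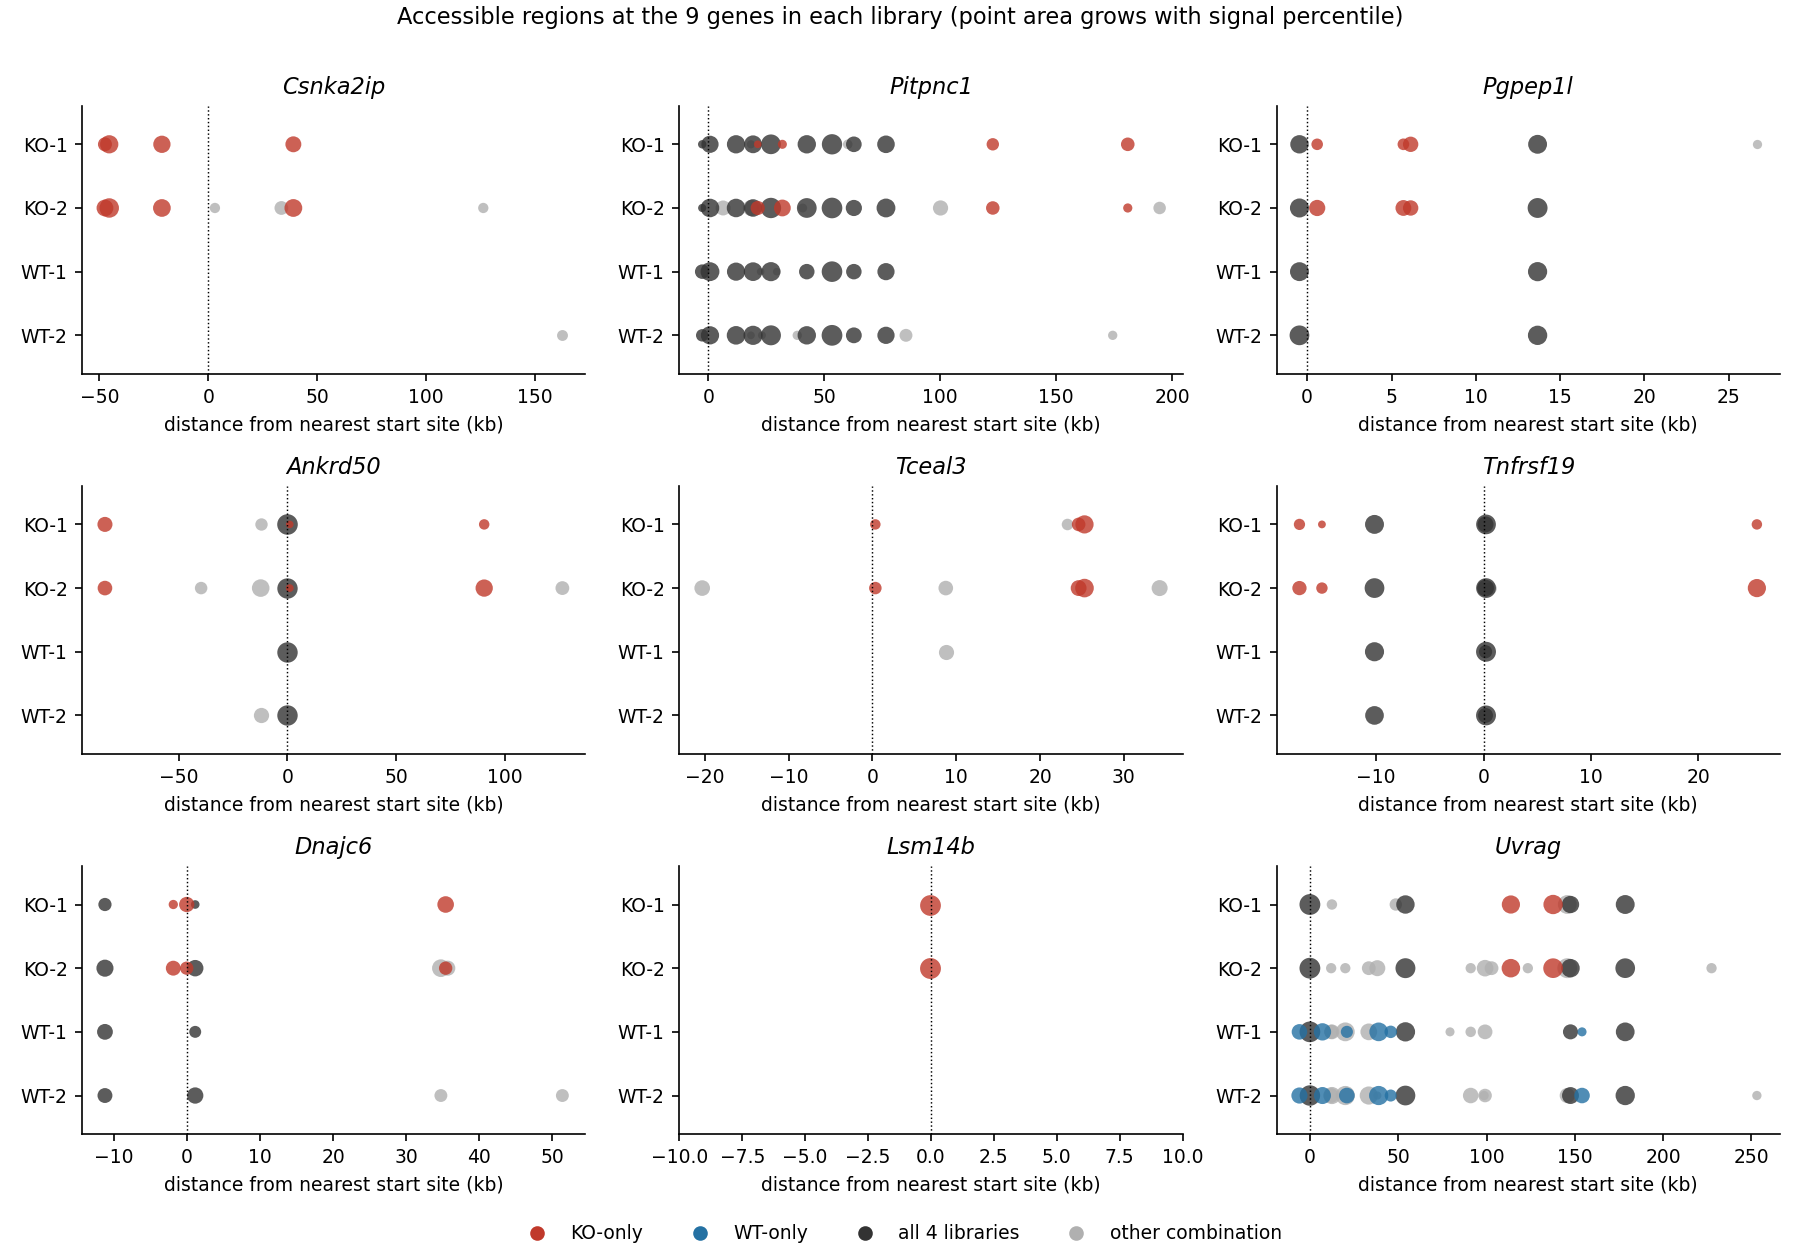
Regions of each gene placed by distance of the midpoint from the nearest annotated start (x axis, kb, upstream negative), with 1 row per library, KO above WT. Point area grows with the percentile of fold enrichment and colour gives the class, with the 26 KO-only regions in red, absent from both WT rows.

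Lsm14b (chromosome 2, 180024900 to 180035466, plus strand) had a single region, and it ranked first among the 1737 KO-only regions of the genome by the lower of its KO percentiles. The region, 180024340 to 180025579, covered the start of the gene. Its deposited fold enrichment over the caller's background was 12.3 in KO-1 and 18.3 in KO-2, at percentiles 97.2 and 98.3 of each library's own list. The summits of both KO peaks fell on the same base, 154 bp before the annotated start. Of the 41 KO-only regions that overlap a promoter window, the next strongest had a lower percentile of 70.6.

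The surroundings of the Lsm14b region were empty in every list. The nearest peak lay 40.3 kb away in WT-1 and 47.0 kb away in WT-2. From 180025580 to 180098758, a stretch of 73.2 kb that holds the protein-coding genes Psma7, Ss18l1 and Mtg2 with their 3 promoter windows, no KO or WT list had a peak. Psma7 encodes a proteasome subunit that cells use in general. Numbers are missing from the peak numbering of all lists, 1603 and 1681 in KO-1 and KO-2 and 1758 and 1900 in WT-1 and WT-2. A peak that did not form in the WT libraries and a WT peak not analysed here cannot be told apart for Lsm14b. The missing numbers leave the same limit on the other KO-only regions.

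Uvrag (chromosome 7, 98886742 to 99141167, minus strand) had the second strongest KO-only region and was also the sole gene of the 9 with WT-only regions. Its 27 regions had 2 KO-only and 6 WT-only ones. The KO-only count was 5 without KO-1 and 4 when each list was shortened to its 20000 strongest peaks. Over the 9 genes, the WT-only count was 11 without KO-2, 14 without WT-1 and 2 in the shortened lists. The region at 99003105 to 99003815, 138 kb after the start within the gene, had a fold enrichment of 7.69 in KO-1, with 11.3 in KO-2 (percentiles 82.6 and 85.8). The region at 99027014 to 99027708, 114 kb after the start, had 5.56 and 7.69 (percentiles 71.4 and 74.6). The nearest WT peaks lay 7.55 kb and 14.1 kb from them. The KO summits were 3 bp apart in the stronger region and 115 bp apart in the other.

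The WT-only regions of Uvrag lay mostly nearer to the start. Of the 6, 5 had midpoints between −5.93 kb and 45.7 kb from the start, and the other was 154 kb from it. The strongest, 99101709 to 99102735, stood at percentile 76.2 in WT-1 and 81.3 in WT-2. A KO-2 peak lay 0.175 kb from it, and the nearest KO-1 peak 9.06 kb away. Over the 6 regions, the nearest KO peak lay between 0.175 and 6.14 kb away. Peaks stood in 9 and 16 regions of the gene in KO-1 and KO-2, against 17 and 20 in WT-1 and WT-2, so that the groups did not overlap and WT was higher. The start of the gene was open in every library, at percentiles of 97.6 and 97.4 in the KO libraries and 96.5 and 94.0 in the WT libraries. Regions of B cell markers were also more numerous in the WT libraries, as given above, and their part in this result was not tested.

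Between the classes, Uvrag also had regions of mixed presence that lay beside its KO-only and WT-only ones. The region at 98995184 to 98995664, 146 kb after the start, had percentiles of 77.6 and 88.3 in KO-1 and KO-2 and 46.2 in WT-2, with no peak in WT-1. It lay between the stronger KO-only region and a region open in all libraries, 98993376 to 98993851, with 63.6 and 73.9 in the KO libraries and 44.7 and 60.0 in the WT libraries. Nearer to the start, 20.0 kb after it, the region at 99120703 to 99121528 had a percentile of 13.8 in KO-2, no peak in KO-1, and 77.6 and 81.0 in WT-1 and WT-2. The region 33.3 kb after the start, 99107605 to 99108045, likewise had 35.5 in KO-2, none in KO-1, and 58.4 and 71.1 in the WT libraries.

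Ankrd50 (chromosome 3, 38449259 to 38484862, minus strand) had 3 KO-only regions of 7, of which 1 lay inside the gene. Peaks stood in 5 and 7 of its regions in the KO libraries and 1 and 2 in the WT libraries. The start was open in all libraries, with percentiles of 95.0 and 92.8 in KO and 93.3 and 93.3 in WT. The KO-only region nearest to it, 38483649 to 38483852, lay 310 bp from the WT-1 peak and 335 bp from the WT-2 peak at the start, with percentiles of 1.37 and 2.01 in KO-1 and KO-2. The others lay outside the gene. The region at 38394077 to 38394645 (percentiles 14.7 and 63.1) was 54.9 kb from it, and 38568614 to 38568888 (44.7 and 41.4) was 83.9 kb from it. For both, a gene of another biotype was nearer than Ankrd50.

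Dnajc6 (chromosome 4, 101496648 to 101642799, plus strand) had 3 KO-only regions of 8, all inside the gene. It lies on the chromosome of Tox, 94.5 Mb away. The region at 101507805 to 101508097 covered the start whose promoter is shown above. Its fold enrichment was 3.50 in KO-1 and 3.40 in KO-2, at percentiles 46.4 and 32.2, so the peak was of ordinary strength. The WT-1 and WT-2 peaks nearest to it lay 898 and 751 bp away, in a region open in all 4 libraries just after this start. The KO-only regions at 101505935 to 101506291 and 101585873 to 101586121 had percentiles of 8.64 and 43.6, and of 57.1 and 32.5, in KO-1 and KO-2. The last of them lay 433 bp from a WT-2 peak. Peaks stood in 5 and 7 regions in the KO libraries and in 2 and 4 in the WT libraries.

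Pitpnc1 (chromosome 11, 107207892 to 107470720, minus strand) had 4 KO-only regions, beside 9 of its 25 regions that had a peak in every library. Peaks stood in 15 and 19 regions in the KO libraries and in 11 and 14 in the WT libraries. The KO-only regions lay inside the gene, 21.3, 31.9, 123 and 181 kb after the start. At 107449214 to 107449616 the percentiles were 1.52 in KO-1 and 38.0 in KO-2, and a WT-1 peak lay 933 bp away. At 107438618 to 107438970 they were 7.76 and 58.9. The more distant ones, 107347874 to 107348287 and 107289793 to 107290009, had 26.0 and 33.4, and 34.0 and 8.33.

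Tnfrsf19 (chromosome 14, 60963834 to 61046855, minus strand) had 3 KO-only regions of 7 and another 3 with a peak in all libraries. Peaks stood in 6 and 7 regions in the KO libraries and 3 and 3 in the WT libraries. The KO-only regions were 61012423 to 61012656 inside the gene (percentiles 14.7 in KO-1 and 71.5 in KO-2), and 61061789 to 61062037 (2.29 and 20.0) and 61063755 to 61064257 (19.1 and 38.8) before it. A gene of another biotype was nearer to both of the last than Tnfrsf19. Of its 2 annotated starts, the inner one had percentiles of 51.7 and 59.3 in the KO libraries and 31.4 and 43.6 in the WT libraries, and the groups did not overlap. The outer start had 86.4 and 86.8 in KO and 88.3 and 88.3 in WT, also without overlap but with WT higher.

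Pgpep1l (chromosome 7, 68235521 to 68264484, minus strand) had 3 KO-only regions of 6, close together within 5.89 kb at the front of the gene. Peaks stood in 6 and 5 regions in the KO libraries and 2 and 2 in the WT libraries. Percentiles in KO-1 and KO-2 were 47.2 and 47.3 at 68257915 to 68258281, 21.5 and 50.8 at 68258353 to 68258704, and 20.9 and 54.2 at 68263479 to 68263802. The first of these lies directly beside the second, and bridging gaps of up to 200 bp joins them. The third lay 702 bp from a WT-1 peak and 496 bp from a WT-2 peak, in a region open in all libraries just before the start.

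Csnka2ip (chromosome 16, 64477810 to 64602331, minus strand) had 4 KO-only regions of 8, in a neighbourhood almost without WT peaks. Peaks stood in 4 and 7 of its regions in KO-1 and KO-2, against 0 in WT-1 and 1 in WT-2, and no region had a peak in all libraries. The KO-only regions spanned 86.9 kb, with 1 inside the gene at 64563040 to 64563524 and 3 before it. The strongest, 64647496 to 64648103, had a fold enrichment of 5.60 in KO-1, with 10.4 in KO-2 (percentiles 71.7 and 83.5), and its KO summits were 7 bp apart. The others had percentiles of 51.7 and 67.7 at 64563040, 63.2 and 67.0 at 64623423 to 64623827, and 36.8 and 58.7 at 64649609 to 64649919. The nearest WT peak to any of the 4 lay 73.9 kb away. Csnka2ip was bounded by Epha3, 613634 bp away, and 4930453N24Rik, 159873 bp away.

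Tceal3 (chromosome X, 136590837 to 136668378, plus strand) likewise had no region shared by all libraries, and 3 of its 7 regions were KO-only. Peaks stood in 4 and 6 regions in the KO libraries and in 1 and 0 in the WT libraries. Neighbouring regions at 136615271 to 136615620 and 136615896 to 136616392 had percentiles of 34.0 and 50.8, and of 71.4 and 75.2, in KO-1 and KO-2. The nearest WT peak was 15.6 kb from the first of them. A weaker KO-only region, 136666835 to 136667082 (14.7 and 26.8), lay 0.347 kb after another annotated start. None of the 3 Tceal3 promoter windows had a peak in any library. The sex of the donor mice is not given in the sources used here.

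**Figure D3:**
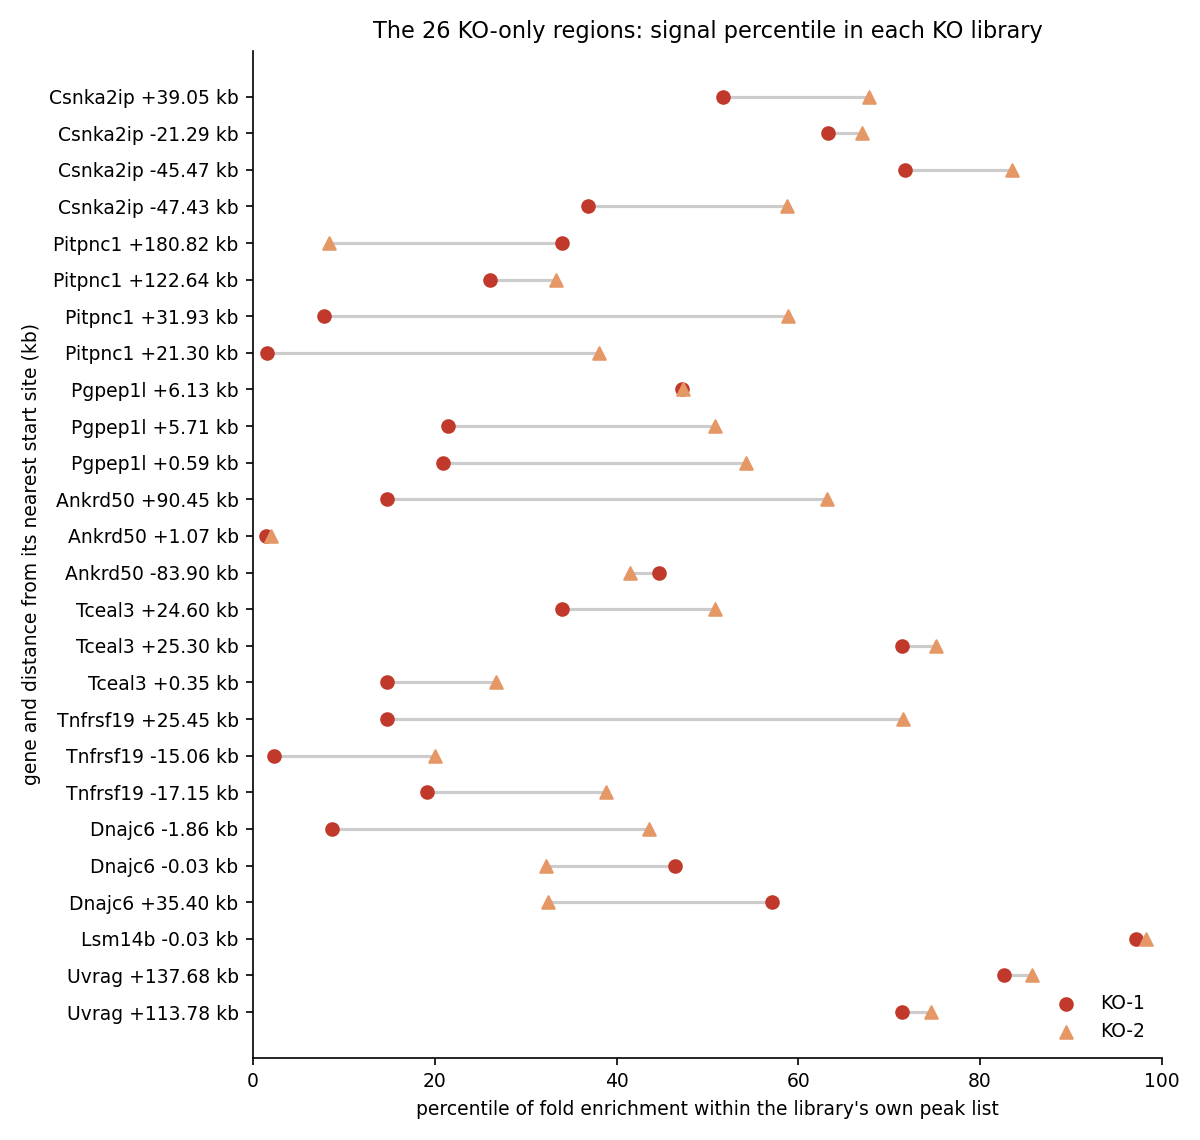
Percentile of fold enrichment within the library's own list (x axis) for the 26 KO-only regions (rows, with the distance of the midpoint from the nearest start in kb), as circles for KO-1 and triangles for KO-2. The region at Lsm14b stands apart at 97.2 and 98.3, and 22 of the 26 rows have KO-2 to the right of KO-1.

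The 26 KO-only regions of the set spread over most of the range of strength. The lower of the KO percentiles had a median of 29.1, against 26.0 over all 1737 KO-only regions of the genome. Those at or above 70 in both KO libraries numbered 5 of 26 (19.2%), against 14 of all 1737 KO-only regions (0.806%), and the 14 include the 5. The choice of the genes favours this share. The 5 regions were at Lsm14b, Uvrag (2), Csnka2ip and Tceal3. KO-2 ranked its peak higher than KO-1 in 22 of 26 (84.6%), against 70.6% of all KO-only regions and 77.9% of the regions open in all libraries. Summits in KO-1 and KO-2 were a median of 30.5 bp apart, against 32 bp over all KO-only and 17 bp over all shared regions. The median width was 355 bp, against 335 bp and 851 bp. Inside genes lay 19 of the 26 (73.1%), against 58.3% of all KO-only regions and 83.3% of all 96 regions of the set. The 58.3% also counts regions without a gene within 100 kb, which the set cannot hold, so these shares are not alike.

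The 43 regions of other patterns were mostly seen in 1 library. A peak in KO-2 alone was found at 16 (16.7% of the 96 regions, against 18.8% of all regions). One in KO-1 alone was found at 4 (4.17% against 7.68%). For WT-2 alone the number was 8 (8.33% against 13.0%), and for WT-1 alone 2 (2.08% against 8.96%). At Csnka2ip, 3 of the 4 were in KO-2 alone and 1 in WT-2 alone. Pitpnc1 had 12 such regions and Uvrag 15, and the other genes 0 to 4. A peak in both WT libraries with 1 in KO-2 was found at 5, all at Uvrag.

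How far the KO-only regions stood from open chromatin in WT cells varied from gene to gene. A WT peak lay within 1 kb of 5 of the 26, at Pitpnc1, Pgpep1l, Ankrd50 and Dnajc6 (2). At 13 the nearest WT peak was over 10 kb away. The same counts were not taken over all 1737 KO-only regions, so neither can be read as a trait of these genes. The assignment by distance was close to its limit at few regions. The farthest kept region, at Ankrd50 with a peak in KO-2 alone, was 90845 bp from the gene, and the nearest one left out, at Csnka2ip and also in KO-2 alone, was 100319 bp away.

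At 14 of the 21 regions open in all libraries, the KO and WT percentiles overlapped. The difference of the mean percentiles, KO minus WT, had a median of 0.61 over the 21 regions and ran from −29.2 to 19.1, against a median of −1.35 over all 26867 shared regions. Both KO percentiles exceeded both WT percentiles in 4 of the 21, against 16.5% of all shared regions, and both WT percentiles exceeded both KO percentiles in 3, against 25.9%. The widest gap was at Pitpnc1, 2.62 kb before the start (107473228 to 107473460), with 4.74 and 3.79 in the KO libraries and 40.6 and 26.2 in the WT libraries. The positive end, 19.1, was another Pitpnc1 region, 107428014 to 107428513, with 73.0 and 86.4 in the KO libraries and 48.0 and 73.2 in the WT libraries, where the groups overlapped. This region lay 42.5 kb after the Pitpnc1 start and overlapped a promoter window of another gene. Its midpoint also lay within a gene of another biotype.

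**Figure D4:**
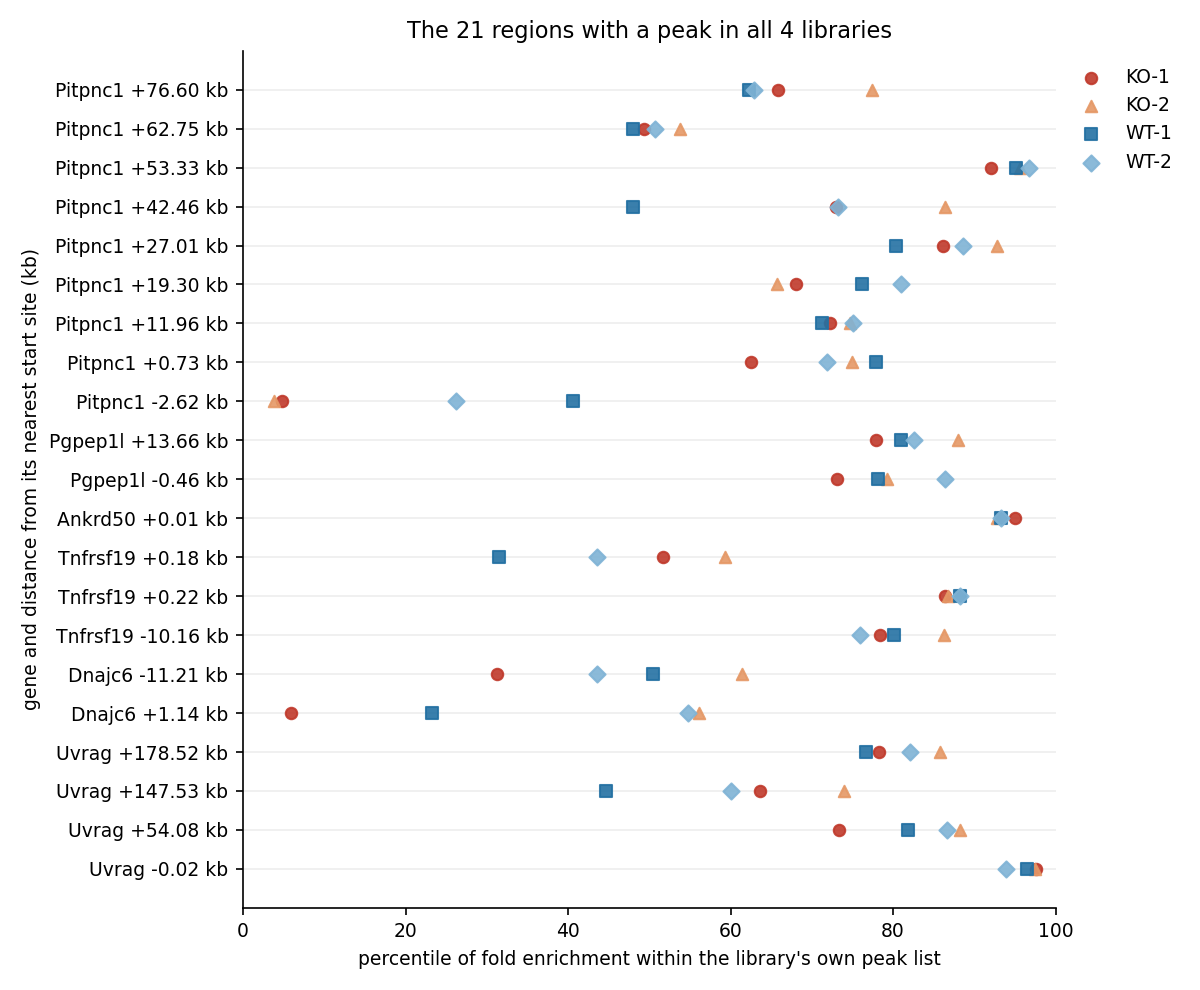
Percentile of fold enrichment within the library's own list (x axis) for the 21 regions with a peak in every KO and WT library (rows, with the distance of the midpoint from the nearest start in kb). Most rows mix KO and WT points; the Pitpnc1 region at −2.62 kb has both KO points, at 4.74 and 3.79, left of both WT points.

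Partners and relatives of the 9 proteins had KO-only regions in a share close to that of the genome. A list of 61 partner genes, from casein kinase 2 subunits to the Beclin 1 complex, held 4 KO-only regions of 259 (1.54%), near the 1.78% of all regions, and 27 WT-only regions (10.4%), against 8.80%. The KO-only ones were 2 at Pitpnm2, a membrane-bound relative of Pitpnc1, 1 at Edc3, an enhancer of mRNA decapping, and 1 at Ambra1, a regulator of autophagy. Partners of Uvrag had 1 KO-only and 6 WT-only regions of 42, and those of Lsm14b 1 and 8 of 53. Of 10 TCEAL and BEX genes, 5 had a region, and none was KO-only or WT-only. Snx27 and the retromer and WASH genes, which act with Ankrd50, together had 0 and 3 of 21.

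The pattern of at least 3 KO-only and no WT-only region was rare among genes. It was found at 17 of 16537 genes (0.103%), while 7.47% had a KO-only region at all. It held for 7 of the 9 genes here, the exceptions being Lsm14b with its single region and Uvrag. The other 10 included Acsl6 with 4 KO-only regions and Il1rl1, Atp9b, Frmd8, Ywhaz, Lrmp, Thy1, F13a1 and Peli1 with 3 each. Thy1 is also one of the 8 T cell markers above, which together held 9 KO-only and 5 WT-only regions of 92. Of all regions, 1.78% were KO-only and 8.80% WT-only. Among the 17, KO-only regions made up 50.0% of the regions at Csnka2ip and Pgpep1l, 44.4% at Acsl6, and 10.3% at Peli1. As at Csnka2ip and Tceal3, Acsl6 and Il1rl1 had no region open in all libraries.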

How the data were processed

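Each of the 4 ATAC-seq libraries, 2 KO and 2 WT, had 1 deposited peak list. The submitters' processing notes name MACS2, BWA, Picard, SAMtools and deepTools and the assembly GRCm38, also called mm10. The sources used here give no versions, settings or filters, so read shifting is unknown. Each peak carries a deposited fold enrichment, the ratio of its height to background as the caller set it. It also carries a deposited −log10 p and −log10 q (all above 2) and a deposited score, which was left aside. All are the authors' values and served to rank, describe or filter within 1 list. Percentiles were taken within each list, with the highest peak where a region held several.

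Peaks sharing 1 bp were merged and assigned to the nearest protein-coding interval of a RefSeq gene table on GRCm38.p6 within 100 kb of the midpoint (85.0% of regions). Equal distances went to the shorter gene. Promoter windows span 250 bases before to 50 bases after a start, and all 9 genes matched by symbol. Exons and introns, and the sequence of regions outside those windows, were not analysed here. Positions are 1-based. Merging and assignment were tested on simulated data. The 9 genes, lists and alternatives were chosen with earlier results of these data known, so no test was run. Named were the 9 genes, their flanking genes, partners with a KO-only region and up to 10 genes of like pattern. The farthest and widest cases and the genes of the empty stretch were named after values were seen. Alternatives were stricter peaks, the 20000 strongest peaks, other merging, other gene assignment, ranking by −log10 q and each replicate left out. Python 3.11.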

Additional observations from a re-analysis of the deposited data

How the results depend on the processing

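The 26 KO-only regions fell to 7 with peaks of a −log10 q of at least 5, to 6 at 10, and to 8 with the 20000 strongest peaks of each library. The genes with such a region fell from 9 to 4, 4 and 5, and the KO minus WT difference in regions with a peak from 23.5 to 8, 5.5 and 6.5. The 6 WT-only regions became 7, 5 and 2. These settings keep fewer peaks by construction, and the regions of the set fell from 96 to 63, 38 and 26. Over the genome, KO-only regions went from 1737 to 1090 and 660 at the stricter q, and to 1785 with the 20000 strongest peaks. They were 2.19%, 1.85% and 6.77% of all regions, against 1.78% in the main setting. Bridging gaps of 200 bp gave 25 KO-only regions, joining summits within 250 bp 26, assignment within 10 kb 19 and assignment to genes of any biotype 22. Within 10 kb, the count fell from 4 to 1 at Csnka2ip and from 3 to 1 at both Ankrd50 and Tnfrsf19. Leaving out each replicate in turn gave 26 to 42 KO-only regions, the highest without KO replicate 1. The KO-only share of all regions then ran from 2.84% to 22.3%, also highest without KO replicate 1. WT-only regions of the set numbered 7 to 14, and the KO minus WT difference in regions with a peak ran from 13.5 to 33.5. A missing library loosens both classes, so neither can fall. The median percentile difference at shared regions ran from −1.49 without KO replicate 2 to 3.08 without KO replicate 1. Each lay within the spread between replicates (SD 3.18) of the main value, 0.61. With joined summits the difference was −0.024, so its sign is not settled. No paired analysis was possible because the values come from no test and no label says that a replicate number pairs samples. Depth is unknown, and an absent peak can be a peak below the caller's threshold.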
